A study of Mus musculus with 9 samples.

Results

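The 9 genes described here encode the enzymes that make pyrimidine nucleotides and turn ribonucleotides into the deoxynucleotides of DNA. The members were given by symbol (*Cad*, *Dhodh*, *Umps*, *Ctps*, *Ctps2*, *Tyms*, *Rrm1*, *Rrm2* and *Tk1*) and read from a count table of 26858 genes. All 9 were in the table, and all 9 were among the 14990 genes with enough reads to be tested. RNA-seq was performed on SIX2 progenitors of the mouse kidney on embryonic day E18.5. Control libraries (n = 4) came from Six2-Qpc+/- mice, heterozygous for *Qpc*, and mutant libraries (n = 5) came from Six2-Qpc-/- knockout mice. *Qpc* is *Uqcrq*, which encodes a subunit of mitochondrial (mt) complex III. Mutants were Six2-eGFP/cre tg/+ mice homozygous for a floxed *Qpc* allele, in which a bacterial artificial chromosome carrying the *Six2* promoter drives a fusion of Cre and eGFP. Cells were sorted by eGFP, so the cells of both genotypes carried this transgene, and no library from mice without Cre entered the comparison. The libraries are named here by their label numbers, control 71, 72, 73 and 76 and mutant 74, 75, 77, 78 and 79. Nothing in the labels says that they came from separate animals or litters, so p-values measure only the spread between these libraries, which may be technical in part.

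Pyrimidines are built de novo by 3 proteins that act in series. CAD carries out the opening steps in the cytosol, DHODH oxidizes dihydroorotate to orotate in the inner mt membrane, and UMPS converts orotate to uridine monophosphate. DHODH hands its electrons to ubiquinone, which complex III oxidizes again, so this step of nucleotide synthesis is tied to mt electron transport. CTP synthases (CTPS and CTPS2) then form CTP from UTP. Ribonucleotide reductase, made of the large subunit RRM1 and the small subunit RRM2, forms deoxynucleotides, thymidylate synthase (TYMS) forms dTMP from dUMP with a folate cofactor, and the cytosolic thymidine kinase TK1 salvages thymidine. *Rrm2*, *Tyms* and *Tk1* are known for their expression around S phase of dividing cells, and SIX2 progenitors of the embryonic kidney both renew themselves and give rise to nephrons.

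*Uqcrq*, the targeted gene, was measured at 107, 76.8, 91.1 and 101 CPM (counts per 1000000 counts of the TMM-normalized library size) in control libraries 71, 72, 73 and 76. The mutant libraries 74, 75, 77, 78 and 79 held 16.5, 28.2, 22.6, 20.3 and 19.0 CPM. No mutant library reached the lowest control, and the log2 fold change was −2.14 (SE 0.16, adjusted p = 2.09e-05 by the edgeR quasi-likelihood test with Benjamini-Hochberg adjustment, which also gives every adjusted p below). Library totals ranged from 21040536 to 23986458 counts. The summed level of 10 nephron progenitor markers was 2129 to 2630 CPM in control and 2138 to 2592 CPM in mutant libraries. None of the 10 passed the threshold, an adjusted p under 0.05 (2 did at an unadjusted p under 0.05, and none did in DESeq2). With 1 surrogate variable 2 of them passed, and 1 passed with limma-voom or without mutant 75. Among 7 stromal markers tested, 5 were higher in mutant libraries, and the summed level of the 8 listed was 105 to 151 CPM in control and 230 to 556 CPM in mutant libraries, highest in mutant 75. The count was 2 without control 73 and 3 without control 72. Of 7 markers of committed nephron cells, 3 were lower, with sums of 337 to 667 CPM against 252 to 361 CPM. Without control 76 or without mutant 74, 5 were called. The count was 2 without control 71, 72 or 73 or mutant 75, 78 or 79, and 2 with the surrogate variable or the Y-linked covariate. Myeloid markers summed to 2.30 to 8.06 CPM in control and 5.97 to 72.3 CPM in mutant libraries, highest in mutant 77. All 6 were fitted higher (median 2.77 on the log2 scale), and 1 was called by edgeR, 4 by DESeq2, 6 by limma-voom and 5 by edgeR without mutant 74. Y-linked transcripts were near 0 in 6 libraries and at 263 to 328 CPM in control 72, control 73 and mutant 79. The part of these differences in the results that follow was not tested, except that Y-linked expression was entered as a covariate and each library was left out in turn. In bulk RNA, fewer cells of a type and less RNA per cell cannot be told apart.

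Expression of the 4 genes of deoxynucleotide supply was lower in SIX2 progenitors from Six2-Qpc-/- kidneys. *Tk1* fell by 0.52, *Rrm2* by 0.42, *Tyms* by 0.39 and *Rrm1* by 0.38 on the log2 scale, and these were the only members that passed the threshold. None of the 3 genes of uridine monophosphate synthesis passed the threshold. *Dhodh* was fitted lower and its libraries did not overlap between genotypes. *Cad* was fitted lower with overlap, and *Umps* was fitted higher with overlap. These fitted signs alone do not show that the 3 genes changed differently. *Ctps* was fitted higher and *Ctps2* was near its control level. Across the 9 members, 4 were called lower, 0 were called higher and 5 did not pass (at an unadjusted p under 0.05 these counts were 5 lower and 1 higher). In all tested genes, 14.8% were called, 7.02% lower and 7.82% higher. In 6 of the 9 members no mutant library overlapped a control library, and this was the case for 15.2% of all tested genes. The median log2 fold change of the members was −0.35, and that of all tested genes was −0.01.

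**Figure D1:**
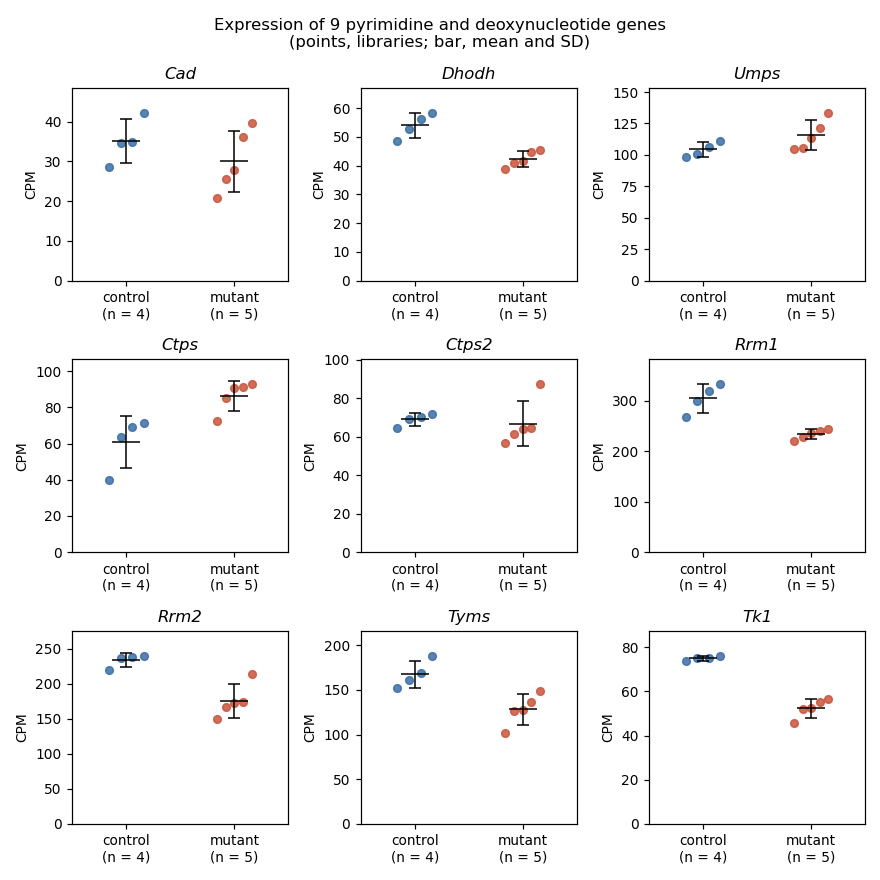
Expression of the 9 members in every library. The vertical axis of each panel is CPM from 0, points are libraries (4 control, 5 mutant), and bars are the mean and SD. Control and mutant points do not overlap for *Dhodh*, *Ctps*, *Rrm1*, *Rrm2*, *Tyms* and *Tk1*, with *Ctps* alone of these higher in mutant libraries.

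*Tk1* (ENSMUSG00000025574, mm10 chr11:117815526-117826092, minus strand), the cytosolic thymidine kinase, was lower in all 5 mutant libraries. Control libraries 71, 72, 73 and 76 held 75.2, 75.3, 73.6 and 76.1 CPM. Mutant libraries 74, 75, 77, 78 and 79 held 56.7, 55.3, 51.9, 45.7 and 52.5 CPM. The control values had a coefficient of variation of 1.38%, and the highest mutant value was well under the lowest control value. At 1747 to 1933 reads per control library, counting error alone would give a spread at least as large as that of the controls. Their closeness is therefore no measure of how little control libraries differ. The mean fell by 30.1%, from 75 ± 1.04 CPM (SD, n = 4) to 52.4 ± 4.25 CPM (SD, n = 5). The log2 fold change was −0.52 (SE 0.11, 95% interval −0.74 to −0.29, edgeR adjusted p = 0.00748). An exact 2-sided permutation test over the 126 ways to divide 9 libraries into 4 and 5 gave p = 0.00794, the smallest this design allows. *Tk1* was the member whose call held in all 17 refits with another tool, scaling, filter or covariate or without 1 library. A gene on the opposite strand, *Afmid*, shares 83 exon bases with *Tk1*, and reads could not be assigned to a strand. *Afmid* was at a mean of 1.33 CPM.

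*Rrm1* and *Rrm2*, the large and small subunits of ribonucleotide reductase, were lower by similar amounts. *Rrm1* (ENSMUSG00000030978, mm10 chr7:102441695-102469771, plus strand) was at 268, 332, 299 and 319 CPM in control libraries 71, 72, 73 and 76. In mutant libraries 74, 75, 77, 78 and 79 it was at 228, 220, 245, 235 and 240 CPM. The mutant values were tightly grouped below the lowest control, library 71. The mean fell from 305 ± 28.1 CPM (SD, n = 4) to 234 ± 9.96 CPM (SD, n = 5), with a log2 fold change of −0.38 (SE 0.10, 95% interval −0.60 to −0.16, edgeR adjusted p = 0.0247) and an exact permutation p = 0.00794. *Rrm2* (ENSMUSG00000020649, mm10 chr12:24708241-24714146, plus strand) was at 239, 240, 220 and 238 CPM in the control libraries in the same order. Its mutant values were 149, 174, 214, 166 and 172 CPM. Mutant 77 came close to control 73, the lowest control, and the other mutant libraries were well below it. The mean fell from 234 ± 9.56 CPM (SD, n = 4) to 175 ± 23.9 CPM (SD, n = 5), with a log2 fold change of −0.42 (SE 0.11, 95% interval −0.66 to −0.17, edgeR adjusted p = 0.0285) and an exact permutation p = 0.0159. Both calls depended on the libraries: leaving out 1 library at a time, *Rrm1* passed the threshold in 4 of 9 refits and *Rrm2* in 2 of 9, with log2 fold changes of −0.44 to −0.34 and −0.50 to −0.37. *Rrm2b*, the alternative small subunit of ribonucleotide reductase, is known as the form used outside S phase and had means of 6.98 ± 2.26 CPM (SD, 4 controls) and 6.32 ± 1.41 CPM (SD, 5 mutants). The fitted log2 fold change of *Rrm2b* was −0.14 (SE 0.26, edgeR adjusted p = 0.744).

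*Tyms* (ENSMUSG00000025747, mm10 chr5:30058202-30073617, minus strand), thymidylate synthase, was at 169, 152, 161 and 188 CPM in control libraries 71, 72, 73 and 76. Mutant libraries 74, 75, 77, 78 and 79 held 102, 128, 136, 149 and 126 CPM. The groups did not overlap, but mutant 78 and control 72 differed by little. The mean fell from 167 ± 15.4 CPM (SD, n = 4) to 128 ± 17.1 CPM (SD, n = 5), with a log2 fold change of −0.39 (SE 0.12, 95% interval −0.65 to −0.12, edgeR adjusted p = 0.0497) and an exact permutation p = 0.0159. *Tyms* therefore stood at the edge of the threshold. It was called in 0 of the 9 refits that left out 1 library, in which its log2 fold change stayed between −0.44 and −0.31.

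**Figure D2:**
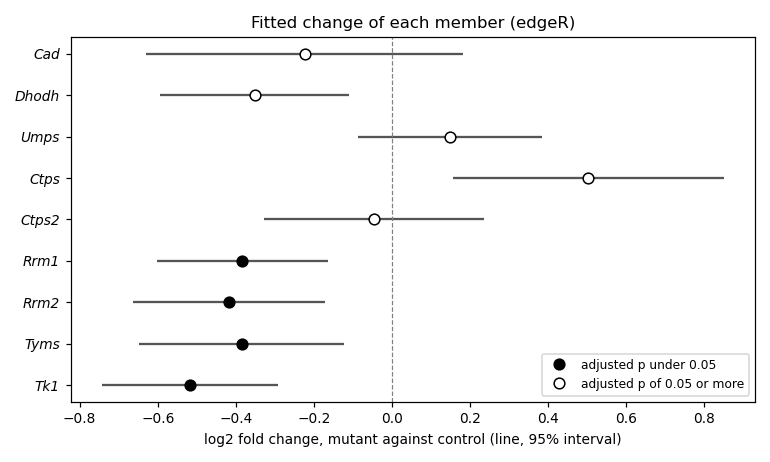
Fitted log2 fold change of each member, mutant against control, from edgeR. Points are estimates, lines are 95% intervals, and filled points have an adjusted p under 0.05. The 4 filled points are *Rrm1*, *Rrm2*, *Tyms* and *Tk1*, all below 0, and the intervals of *Dhodh* (below 0) and *Ctps* (above 0) also leave out 0.

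*Rrm1*, *Rrm2* and *Tyms* were all called lower, and the sequences just upstream of their annotated starts are given to show which short promoter motifs they hold. They are 150 bases from the RefSeq tables of build GRCm38.p6 and lie before every annotated exon of the gene, so that the stretch of *Rrm1* and that of *Tyms* end at the RefSeq start and that of *Rrm2* ends 13 bases before it. They are written 5′ to 3′ on the strand of the gene. Capitals mark CCAAT boxes (CCAAT), GC boxes (GGGCGG) and an E-box (CACGTG). *Tk1*, also called lower, is not printed. Its stretch ends 78 bases before the RefSeq start and holds none of these motifs, and its GC box, 13 bases before the start, lies outside it.
Rrm1, chr7:102441545-102441694, plus strand: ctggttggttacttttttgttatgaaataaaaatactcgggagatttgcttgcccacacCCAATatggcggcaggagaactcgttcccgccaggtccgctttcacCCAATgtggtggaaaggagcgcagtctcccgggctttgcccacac
Rrm2, chr12:24708091-24708240, plus strand: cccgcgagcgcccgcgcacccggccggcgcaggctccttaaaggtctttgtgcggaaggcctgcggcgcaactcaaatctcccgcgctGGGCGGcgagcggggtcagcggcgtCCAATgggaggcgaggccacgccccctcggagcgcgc
Tyms, chr5:30073626-30073775, minus strand: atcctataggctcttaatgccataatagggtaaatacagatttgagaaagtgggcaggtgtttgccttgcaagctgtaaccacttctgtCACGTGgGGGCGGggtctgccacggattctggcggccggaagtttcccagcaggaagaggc

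*Rrm1* held CCAAT boxes 91 and 45 bases before its start, and *Rrm2* held 1 at 50 bases and GC boxes at 75 and 225 bases, the last of these outside the stretch printed. Distances run from the RefSeq start, not from the end of the printed stretch, to the first base of the motif. The E-box of *Tyms* began 61 bases before its start, with a GC box at 54 bases. RefSeq promoter windows (250 bases before to 50 after each start) were matched for 8 of the 9 members, in 11 windows, and *Dhodh* had no window in the table. On either strand, CCAAT was found in windows of 3 members (*Ctps2*, *Rrm1* and *Rrm2*) and in 37.4% of all 32851 windows. GGGCGG was found in 6 members (*Cad*, *Ctps*, *Rrm2*, *Tk1*, *Tyms* and *Umps*) and in 35.7% of all windows, and CACGTG in *Tyms* and in 7.15%. The letters TTTGGCGC and TTTCGCGC, forms of the site known for E2F factors, were in 0 members and in 0.514% and 0.323% of all windows. Other forms of the E2F site were not searched. At such low shares, 0 members does not show that E2F sites are absent. TGATGNAA, the CARE motif known for ATF4, was in 0 members and in 3.97% of all windows. These counts describe the letters in these windows and nothing about binding.

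*Dhodh* (ENSMUSG00000031730, mm10 chr8:109591343-109608673, minus strand) encodes the enzyme of the pathway that passes electrons to ubiquinone. It was at 48.7, 56.2, 58.4 and 52.9 CPM in control libraries 71, 72, 73 and 76. It was at 45.3, 44.8, 41.6, 38.9 and 41.0 CPM in mutant libraries 74, 75, 77, 78 and 79. All mutant values were under the lowest control, library 71. Means were 54.0 ± 4.23 CPM (SD, n = 4) and 42.3 ± 2.72 CPM (SD, n = 5), and the exact permutation p was 0.00794. The fitted log2 fold change was −0.35 (SE 0.11, 95% interval −0.59 to −0.11), with an edgeR adjusted p = 0.0510 that missed the threshold. The call was made in 5 of 17 refits, DESeq2 (adjusted p = 0.0193) and limma-voom (adjusted p = 0.00616) among them.

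*Cad* (ENSMUSG00000013629, mm10 chr5:31054780-31078479, plus strand) encodes the enzyme that opens the pathway, and varied most among mutant libraries. Control libraries 71, 72, 73 and 76 held 28.7, 34.7, 42.2 and 34.8 CPM. Mutant libraries 74, 75, 77, 78 and 79 held 36.1, 20.9, 27.9, 25.7 and 39.7 CPM. Mutants 74 and 79 lay inside the control range and the other mutants below it, so the groups overlapped, and the coefficient of variation was 25.6% in mutant libraries. The log2 fold change of *Cad* was −0.22 (SE 0.19, 95% interval −0.63 to 0.18, edgeR adjusted p = 0.450, exact permutation p = 0.294).

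*Umps* (ENSMUSG00000022814, mm10 chr16:33954782-33967038, minus strand) encodes the enzyme that closes the pathway to uridine monophosphate. It was at 101, 98.2, 107 and 111 CPM in control and at 104, 121, 114, 133 and 105 CPM in mutant libraries, in the same orders. Mutants 75, 77 and 78 were above the highest control, and mutants 74 and 79 lay within the control range. The log2 fold change of *Umps* was 0.15 (SE 0.11, 95% interval −0.09 to 0.38, edgeR adjusted p = 0.380, exact permutation p = 0.127). *Umps* shares 213 exon bases with an antisense gene, *Gm15829*, which was at 0.0985 CPM.

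Of the 2 CTP synthases, *Ctps* was fitted higher and *Ctps2* was near its control level, and neither passed the threshold. *Ctps* (ENSMUSG00000028633, mm10 chr4:120539868-120570276, minus strand) was at 39.7, 63.4, 71.2 and 69.2 CPM in control libraries 71, 72, 73 and 76. It was at 90.4, 85.0, 91.3, 92.7 and 72.2 CPM in mutant libraries 74, 75, 77, 78 and 79. Control 71 was far under the other controls, and mutant 79 was just above control 73, the highest control. The mean of *Ctps* went from 60.9 ± 14.5 CPM (SD, n = 4) to 86.3 ± 8.42 CPM (SD, n = 5), by 41.7%, with an exact permutation p = 0.0159. Its log2 fold change of 0.50 (SE 0.16, 95% interval 0.16 to 0.85, edgeR adjusted p = 0.0515) missed the threshold, and without control 71 it was 0.34 (edgeR adjusted p = 0.0897). *Ctps2* (ENSMUSG00000031360, mm10 chrX:162901238-163032508, plus strand) was at 70.4, 64.5, 69.4 and 71.8 CPM in control and at 61.6, 87.2, 64.6, 63.9 and 57.0 CPM in mutant libraries. Mutant 75 stood above all other libraries, and the other mutants were at or below the lower end of the control range. The log2 fold change of *Ctps2* was −0.05 (SE 0.13, 95% interval −0.33 to 0.24, edgeR adjusted p = 0.846, exact permutation p = 0.683).

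Per kilobase of gene length, the subunits of ribonucleotide reductase were the most abundant members in both genotypes. In control libraries the order of levels was *Rrm2* (107 CPM per kb), *Rrm1* (76.2), *Tyms* (43.1), *Tk1* (30.1), *Umps* (29.9), *Ctps* (22.5), *Ctps2* (20.6), *Dhodh* (14.2) and *Cad* (4.92). The neighbours *Tk1* and *Umps*, and *Ctps* and *Ctps2*, overlapped between control libraries, and all other neighbours were apart. In mutant libraries the levels per kb were 79.9 for *Rrm2*, 58.4 for *Rrm1*, 33.0 for *Tyms*, 21.1 for *Tk1*, 33.2 for *Umps*, 31.9 for *Ctps*, 19.9 for *Ctps2*, 11.1 for *Dhodh* and 4.21 for *Cad*. *Umps* was close to *Tyms* in mutant libraries, and every mutant library had more *Umps* than *Tk1* per kb. *Ctps* overlapped *Umps* in mutant libraries, which it did not in control libraries.

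Ratios between paralogs, subunits and steps of the pathway were compared within the same library. The smallest adjusted p over the 10 ratios was 0.159 (exact permutation tests, 2-sided). The smallest unadjusted p of this design is 0.00794, so after adjustment over 10 a ratio could not have passed alone, and the adjusted values do not show that the balance was kept. The ratio of *Rrm2* to *Rrm1* changed by −0.05 on the log2 scale (exact p = 0.659). That of *Dhodh* to *Umps*, the neighbouring steps, was −1.05, −0.81, −0.87 and −1.07 in control libraries 71, 72, 73 and 76 and −1.20, −1.44, −1.45, −1.78 and −1.36 in mutant libraries 74, 75, 77, 78 and 79. All 5 mutant libraries were below the lowest control, a difference of −0.49 (exact p = 0.0159, adjusted p = 0.159). The log2 ratio of *Ctps2* to *Ctps* had a mean of 0.22 ± 0.41 (SD, 4 controls) and of −0.38 ± 0.25 (SD, 5 mutants), a difference of −0.59 (exact p = 0.0317, adjusted p = 0.159). Mutants 74, 77, 78 and 79 were below the lowest control, and mutant 75 lay inside the control range. The ratios *Rrm2b* to *Rrm2* (0.32), *Tk1* to *Tyms* (−0.13) and *Dhodh* to *Cad* (−0.10) had exact p-values of 0.278, 0.460 and 0.603 for the differences given.

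**Figure D3:**
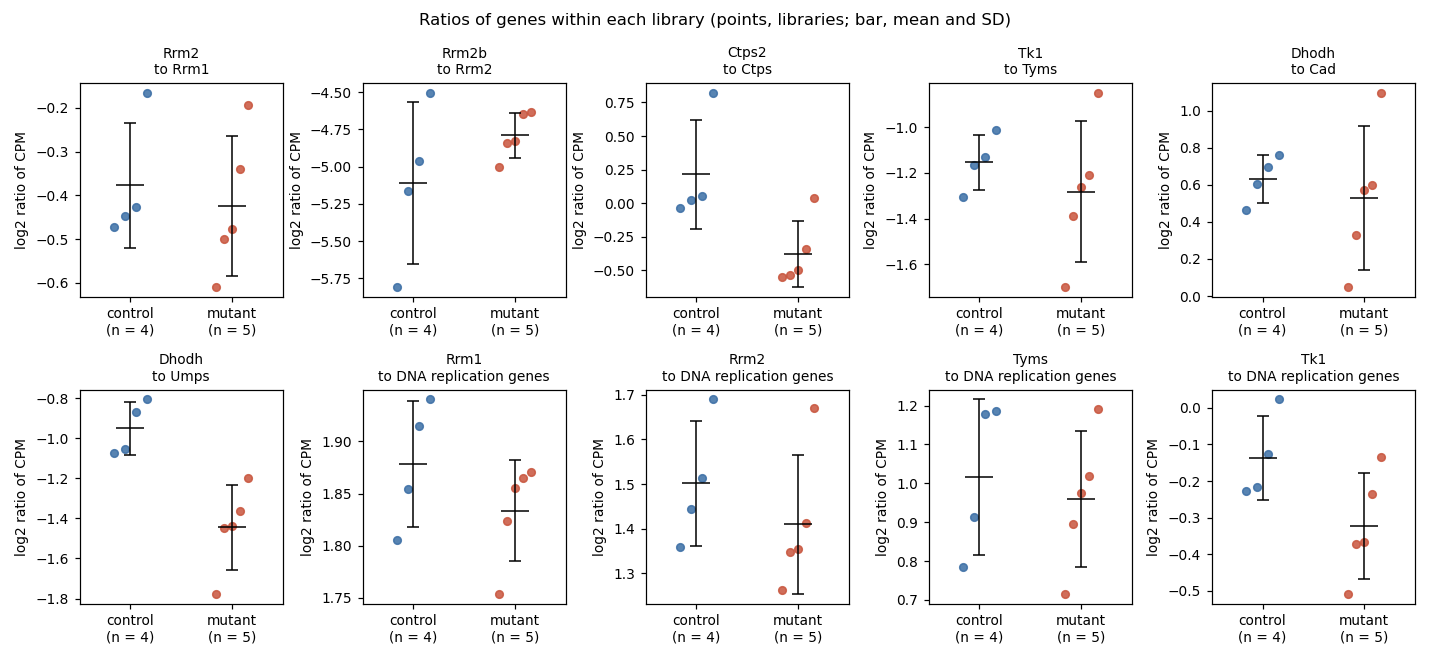
Log2 ratios of CPM between genes of the same library, 1 panel for each of the 10 ratios, with its own vertical scale. Points are libraries (4 control, 5 mutant) and bars are the mean and SD; in the lower row the last 4 panels divide by the mean log2 level of the DNA replication genes. Only *Dhodh* to *Umps* keeps the groups apart.

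Most genes of DNA replication were fitted lower, as the deoxynucleotide genes were. In all tested genes, 14.8% were called, 7.02% lower, and the median log2 fold change was −0.01. Of 24 listed replication genes 23 were tested, 5 were called lower and 0 higher. Of the 23, 21 were fitted lower, with a median log2 fold change of −0.27. The count called was 2 without control 73, 3 without control 72 or mutant 78, and 8 without mutant 74. It was 8 with DESeq2, 10 with 1 surrogate variable and 11 with limma-voom. *Mcm5*, a subunit of the replicative helicase, changed by −0.73 (SE 0.17, edgeR adjusted p = 0.0155), and *Pole*, the catalytic subunit of DNA polymerase epsilon, by −0.62 (SE 0.17, edgeR adjusted p = 0.0284). *Cdc6*, which loads the helicase, changed by −0.61 (SE 0.13, edgeR adjusted p = 0.00952), and *Prim1*, a DNA primase subunit, by −0.54 (SE 0.13, edgeR adjusted p = 0.0152). *Rrm1*, *Rrm2*, *Tyms* and *Tk1* were set against the mean log2 level of these replication genes in the same library. In that order, the differences left were −0.05, −0.09, −0.06 and −0.19, with exact permutation p-values of 0.270, 0.365, 0.659 and 0.0635. The log2 fold changes of the replication genes ran from −0.75 to 0.25, and their mean is not the median given above. For *Tk1*, 4 of 5 mutant libraries were below the lowest control ratio (adjusted p = 0.212 over the 10 ratios). Of 12 mitotic genes 1 was called, lower (*Cenpf*, which encodes a kinetochore protein, −0.52, SE 0.15, edgeR adjusted p = 0.0384), and 11 of the 12 were fitted lower with a median of −0.22. No mitotic gene passed without control 71, control 73, mutant 75, mutant 78 or mutant 79, and 2 passed without mutant 74. With 1 surrogate variable 3 mitotic genes passed, and 5 passed with limma-voom.

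Lists of enzymes that surround the members in the pathway are read against the 14.8% of all tested genes that were called. Of 14 nucleotide kinases and enzymes of thymidylate supply, 12 were tested, 0 were called by edgeR or DESeq2 (1 at an unadjusted p under 0.05), 3 were called with 1 surrogate variable, and the median log2 fold change was 0.00. Of 11 genes of purine synthesis, 1 was called. This was *Adss*, adenylosuccinate synthase, which was higher by 0.37 on the log2 scale (SE 0.12, edgeR adjusted p = 0.0454, 113 ± 7.91 CPM in 4 control and 146 ± 17.2 CPM in 5 mutant libraries). The median of the purine genes was 0.04, and none passed without control 71, 72 or 73 or mutant 75, 77 or 78 (2 did without mutant 74).

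Pyrimidine salvage and transport held the largest increase among these lists. *Slc25a33*, a carrier of pyrimidine nucleotides into mitochondria, rose from 15.1 ± 1.89 CPM (SD, n = 4) to 34.5 ± 4.98 CPM (SD, n = 5), with a range of 12.4 to 16.7 CPM in control and 28.1 to 40.1 CPM in mutant libraries. The log2 fold change of *Slc25a33* was 1.20 (SE 0.16, edgeR adjusted p = 0.000758). *Uck2*, a uridine-cytidine kinase that salvages nucleosides, rose from 50.5 ± 5.57 to 79.8 ± 13.8 CPM, a log2 fold change of 0.66 (SE 0.14, edgeR adjusted p = 0.0104). Its symbol stands in the table more than once and the row with more reads was used. These were the 2 genes called of 15 tested and 18 listed, and the median log2 fold change of the 15 was 0.01. Without mutant 74, 5 of these genes were called.

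Among enzymes of pyrimidine breakdown and deoxynucleotide removal, 2 of 8 tested were called, both lower, and the median was −0.29. The count was 1 without control 71, 72 or 73 or mutant 77, and 4 with DESeq2 or limma-voom. *Nt5m*, the mt deoxyribonucleotidase, fell from 53.1 ± 6.01 CPM (SD, n = 4) to 33.7 ± 2.53 CPM (SD, n = 5), by 0.65 on the log2 scale (SE 0.12, edgeR adjusted p = 0.00517). *Nt5e*, the 5′-nucleotidase of the cell surface, was fitted at −2.0 (SE 0.56, edgeR adjusted p = 0.0309) with 32 to 84 reads per control and 3 to 25 reads per mutant library. Of the other enzymes that, like DHODH, pass electrons to ubiquinone, 8 of 9 were tested and 0 were called in the main edgeR fit. DESeq2 called 1, as did edgeR with upper-quartile scaling and edgeR with 1 surrogate variable. In the main fit the median was −0.14, and 1 gene had an unadjusted p under 0.05. The gene with that unadjusted p, named after its value was seen, was *Etfdh*, which takes electrons from fatty acid and amino acid oxidation, at −0.31 (SE 0.10, edgeR adjusted p = 0.0649).

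**Figure D4:**
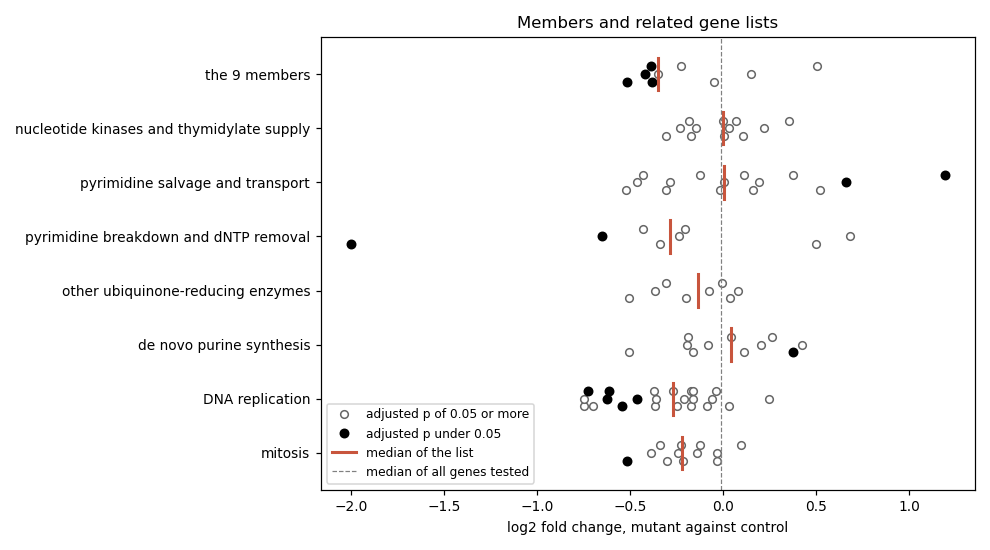
Log2 fold change, mutant against control, of the members and of 7 related gene lists. Points are genes, filled where the edgeR adjusted p is under 0.05, short bars are list medians, and the dashed line is the median of all genes tested (−0.01). The medians of the members (−0.35), the breakdown genes (−0.29), the replication genes (−0.27) and the mitotic genes (−0.22) lie furthest below it.

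The genes most like each member over the 9 libraries were then listed. In a search of 9340 genes at or above a mean of 10 CPM, those whose log2 CPM correlated most with *Tk1* were *Zfp239* and *Ctf1* (Pearson r = 0.986 for both, over 9 libraries that differ in genotype), and for *Rrm1* they were *Deaf1* (r = 0.969) and *Prmt5* (r = 0.961). For *Rrm2* they were *Acaa2* (r = 0.961) and *Hoxa5* (r = 0.957), and for *Tyms* they were *Haus7* (r = 0.950) and a gene whose symbol is stored as a date (r = 0.950). *Dhodh* was followed most closely by *Entpd6* (r = 0.975) and *Dkk3* (r = 0.970), *Cad* by *Ppox* (r = 0.944) and *Urgcp* (r = 0.927), and *Umps* by *Ncoa7* (r = 0.965) and *Noc4l* (r = 0.947). The nearest genes of *Ctps* were *Mef2a* (r = 0.966) and *Gabra5* (r = 0.964), and those of *Ctps2* were *Ankrd49* (r = 0.982) and *Bloc1s6* (r = 0.974). They are the highest of many correlations and serve as a description only.

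Of the members, 3 stood close to the threshold, and their calls changed with the settings. With all libraries, adjusted p-values were 0.0497 for *Tyms*, 0.0510 for *Dhodh* and 0.0515 for *Ctps* in edgeR. Leaving out each library in turn, the count of members called was between 1 and 4 (4 with all libraries). It was 1 without control 72, control 73, mutant 75 or mutant 78 (*Tk1* in each case), 2 without control 71 or control 76, 3 without mutant 77 or mutant 79, and 4 without mutant 74. The genes called were not always the same. Without mutant 74, *Dhodh* was called (edgeR adjusted p = 0.0384) and *Tyms* was not (0.0610). *Ctps*, fitted higher, was among those called without control 76 (edgeR adjusted p = 0.0439) or mutant 79 (0.0489). Directions were steadier: 8 members kept the sign of their fold change in all 17 refits, and *Ctps2* did so in 16. With Y-linked expression as a covariate *Rrm1*, *Rrm2*, *Tyms* and *Tk1* were called, as in the fit without it.

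**Figure D5:**
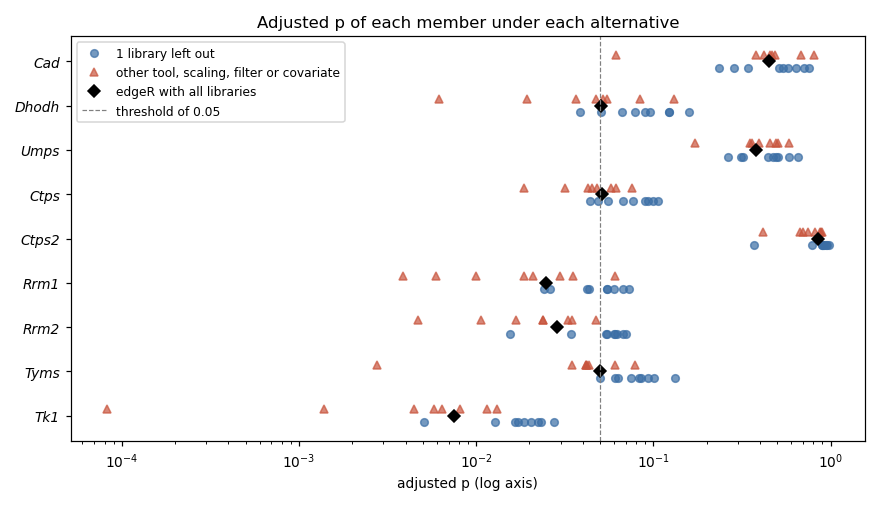
Adjusted p of each member under each refit, on a log axis. Diamonds are edgeR with all 9 libraries, circles are edgeR with 1 library left out, triangles are other tools, scalings, filters or covariates, and the dashed line is the threshold of 0.05. All points of *Tk1* lie left of the line, those of *Cad*, *Umps* and *Ctps2* lie right of it, and the other 5 members have points on both sides.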

How the data were processed

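RNA-seq libraries of sorted SIX2 progenitors were compared between 4 control and 5 mutant samples, grouped by their labels. Per the labels, cDNA was amplified from low-input RNA with poly(A) selection and without strand information, and the submitters' processing notes name STAR, DESeq2 and the build mm10. The counting tool and annotation are not given in the sources used here. The authors deposited raw read counts per gene for each library, and these were used. The table also holds FPKM values, normalized means and the authors' own fold changes and p-values, which were not used. Libraries held 21040536 to 23986458 counts, and the members held from 472 reads (*Cad*) to 8537 reads (*Rrm1*) per library. Counting error is smaller than the spread between libraries of a genotype for the members, except for *Tk1* in control libraries. The control spread of *Tk1*, at 1747 to 1933 reads, is no larger than counting error alone would give. Counting error is larger for genes with few reads, such as *Nt5e* with 3 to 25 reads per mutant library.

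The counts were fitted with edgeR 4.0.16 in R 4.3.3 (filterByExpr, TMM, robust quasi-likelihood test, Benjamini-Hochberg adjustment over 14990 genes, threshold 0.05). The SE is the absolute log2 fold change over the root of the F statistic. Ratios and permutation tests used log2 CPM with a prior count of 2. Exact permutation tests are 2-sided. Alternatives were DESeq2 1.42.0, limma 3.58.1 (voom with sample quality weights), RLE and upper-quartile scaling, no filter (at least 1 count in any library), at least 10 counts in every library, 1 surrogate variable (sva 3.50.0), Y-linked expression as a covariate, each library left out, a log2 fold change of at least 1, and unadjusted p-values. Named genes are the 9 members, up to 4 genes per related list with the largest absolute log2 fold change among those called, the genes used in ratios, and the 2 genes most correlated with each member. The marker lists served only to check the sorted cells. Only 3 of 5 podocyte, 2 of 5 proximal tubule, 3 of 6 ureteric bud and 1 of 6 erythroid markers were tested. Of these, 0 were called (2, 0, 2 and 0 at an unadjusted p under 0.05, and 0, 0, 1 and 0 called by DESeq2). With limma-voom, without control 76 or without mutant 74, 1 podocyte and 1 ureteric bud marker were called. Of 3 tested endothelial markers, 1 was called higher (0 without any 1 library other than mutant 75, and 0 with the stricter filter, the surrogate variable or the Y-linked covariate). Values of 1 gene in a related list are not reported here. Members and lists were chosen with earlier results of these data known. Plots were drawn with matplotlib 3.10.9.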

Additional observations from a re-analysis of the deposited data

Results flagged for a closer look

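Groups of libraries were examined for the members, *Rrm2b*, *Uqcrq* and the ratios. In 4 of 42 groups the highest or lowest library stood far from the others by Dixon's criterion, where chance alone gives about 2.1. The groups are not independent, since the ratios reuse the same genes. *Ctps2* was at 87.2 CPM in mutant 75, against 64.6 CPM in the next mutant library. *Rrm2* was at 220 CPM in control 73, against 238 CPM in the next control. The log2 ratio of *Rrm2* to *Rrm1* was −0.16 in control 71, against −0.43 in the next control. The log2 ratio of *Ctps2* to *Ctps* was 0.82 in control 71, against 0.05 in the next control, and that library also held the lowest *Ctps*, at 39.7 CPM.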

How the results depend on the processing

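The count of all genes past the threshold was 2225. It was 4868 with limma-voom, 4709 with unadjusted p-values, 799 with a log2 fold change of at least 1, and 1046 (without control 73) to 3136 (without mutant 74) with 1 library left out. The count of members past the threshold was 4. It was 0 with a log2 fold change of at least 1, since no member changed that much, and 1 to 4 with 1 library left out. It was 6 with DESeq2, limma-voom, the stricter filter and unadjusted p-values, 5 with upper-quartile scaling, 4 with RLE scaling (where *Ctps* replaced *Tyms*), and 3 without a filter (*Ctps*, *Rrm2* and *Tk1*). The cause of these changes was not tested. Adjusted p-values over the 17 refits ranged from 8.22e-05 to 0.0277 for *Tk1*, 0.00389 to 0.0729 for *Rrm1*, 0.00472 to 0.0704 for *Rrm2*, 0.00275 to 0.133 for *Tyms*, 0.00616 to 0.16 for *Dhodh* and 0.0187 to 0.106 for *Ctps*. *Cad*, *Umps* and *Ctps2* were called in 0 refits. With raw counts or a library left out, 7 of the 10 ratio differences kept their direction; *Rrm2* to *Rrm1* was 0.02 without control 71, *Dhodh* to *Cad* was 0.02 without mutant 79, and *Tyms* to the replication genes was 0.00029 without control 71 and 0.0042 without mutant 74. No paired analysis was possible because the replicate numbers of control and mutant libraries are not shared.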
